A study of Mus musculus with 2 samples.

Results

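The 10 genes Ctsk, Acp5, Atp6v0d2, Ocstamp, Dcstamp, Oscar, Calcr, Nfatc1, Clcn7 and Tcirg1 were chosen by symbol for their known roles in osteoclast fusion, signalling and bone resorption, and all 10 were among the 32285 genes of both deposited matrices. They were followed in 2 single-cell RNA-seq libraries, titled MGJ and MGJ2, of fracture callus from wild-type mice with a femoral fracture. Callus is the repair tissue that bridges a broken bone, and the study's methods name C57BL/6J mice, adult males in its in vivo work. The design text lists callus taken at 10 days from 5 mice and at 20 days from 5 mice, and no allele or agent is named for either library. The labels of the 2 libraries do not say which day a library holds, or how the animals were combined into it. The libraries are therefore reported side by side, each by itself, with no comparison between them and no replicate check of any value.

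Osteoclasts are the cells that resorb bone and calcified cartilage. They arise when precursors of the monocyte and macrophage lineage fuse into large cells with many nuclei, under the control of M-CSF, RANKL and costimulatory immunoreceptors. The mature cell seals off an area of matrix, pumps protons and chloride into it, and secretes proteases that digest the exposed collagen. In a fracture callus they remove calcified cartilage and reshape the woven bone that replaces it.

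Transcripts were counted as UMIs, the molecular tags that mark single captured mRNA molecules. Barcodes with at least 200 genes and at most 20% mitochondrial UMIs were used, less those called doublets. This left 13320 cells of library MGJ and 7584 of library MGJ2, out of 135304426 and 61130834 UMIs in the whole matrices. The 2 libraries shared 19 barcodes. Cells were clustered without the 10 genes, and a cluster was named "X-like" from marker genes that also left them out. Levels are CPM, the UMIs of a gene scaled to 1000000 UMIs of its class, with the exact 95% Poisson interval in parentheses, shares carry exact Clopper-Pearson intervals, and both cover counting error only.

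Osteoclast-like cells were rare in both libraries. Library MGJ held 126 of them, 0.946% of its cells (0.789 to 1.13%), and library MGJ2 held 69, 0.910% of its cells (0.709 to 1.15%). Their median depth was 17474 UMIs in MGJ and 29968 in MGJ2, and 27 and 11 of them had fewer than 5000 UMIs. The name rested on 9 markers other than the 10 genes, all with a UMI in both libraries, whose summed level was 3701 CPM in MGJ and 3357 CPM in MGJ2 against 184 and 412 CPM in all other cells. Mmp9, a gelatinase, led that list with 1763 and 1376 CPM, and Ckb followed with 1115 and 756 CPM, while Siglec15 was near 0 with 1 and 2 UMIs. Not all 9 set the class apart. In MGJ2 Tnfrsf11a was at 75.7 CPM against 73.6 CPM in macrophage-like cells, and Itgb3 at 28.1 CPM against 21.5 CPM in stromal-like cells. Slc9b2 and Rufy4, at 195 and 33.3 CPM there, were at 0.786 and 0.643 CPM in all other cells. The osteoclast-like cells came from 3 sub-clusters of 27, 129 and 39 cells, whose leading genes also included Slc9b2, Bdh2 and several of the 10 genes.

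Markers of other cells were low in this class but not absent. The 8 macrophage markers summed to 160 CPM in MGJ and 41.4 CPM in MGJ2, with 7 of 8 detected and Cd163 at 0, against 4898 and 4544 CPM in macrophage-like cells. The 10 neutrophil markers summed to 1405 and 832 CPM, and the 11 chondrocyte markers to 800 and 55.2 CPM against 66862 and 76823 CPM in stromal-like cells. Their part in the levels below was not tested.

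RefSeq start regions on GRCm38.p6 were at hand for 6 of the 10 genes, Ctsk, Acp5, Oscar, Calcr, Clcn7 and Tcirg1. Those of Ctsk, Acp5 and Oscar are shown, since of these 6 genes they were the ones at least 4-fold higher in osteoclast-like than in macrophage-like cells. Each sequence below is the 250 bases before the start, written 5′ to 3′ along the gene's strand. Capitals mark matches on either strand to the NFAT core GGAAA, the PU.1 core GAGGAA or the M-box TCATGTG. The AP-1 site TGANTCA was searched in the same way.
Ctsk, chr3:95498960-95499209, plus strand: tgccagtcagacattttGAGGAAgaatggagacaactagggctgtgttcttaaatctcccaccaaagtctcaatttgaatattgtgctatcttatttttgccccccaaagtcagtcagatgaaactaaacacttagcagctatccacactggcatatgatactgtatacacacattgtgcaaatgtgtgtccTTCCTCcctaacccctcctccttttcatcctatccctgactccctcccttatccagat
Acp5, chr9:22130599-22130848, minus strand: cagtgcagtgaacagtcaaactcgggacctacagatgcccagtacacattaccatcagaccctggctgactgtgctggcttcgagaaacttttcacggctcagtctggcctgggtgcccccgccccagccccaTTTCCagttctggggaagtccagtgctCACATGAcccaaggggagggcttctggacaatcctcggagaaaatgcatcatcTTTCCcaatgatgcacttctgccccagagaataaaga
Oscar, chr7:3616158-3616407, minus strand: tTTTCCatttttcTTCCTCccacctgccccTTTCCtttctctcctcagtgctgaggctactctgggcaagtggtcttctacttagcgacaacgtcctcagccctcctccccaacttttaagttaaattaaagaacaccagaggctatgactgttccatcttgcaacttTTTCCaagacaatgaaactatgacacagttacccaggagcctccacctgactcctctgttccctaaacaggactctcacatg

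The Ctsk window held 2 PU.1 cores, 233 and 58 bases before the start. Its start at 95499210 lies before the annotated gene start of 95499256, and the bases after it were not found in a transcript of the gene. The Acp5 window, 1 of 3 listed for the gene, held NFAT cores 117 and 37 bases before the start and an M-box at 90 bases. The bases after its start were found in a transcript of the gene. The other 2 windows, where they were not, held 1 NFAT core each, at 167 and 41 bases, and no M-box. The Oscar window held 3 NFAT cores, at 249, 220 and 82 bases, and 1 PU.1 core at 237 bases. Such letters are common: of 32851 windows of the same length, 55.6% held GGAAA, 23.3% held GAGGAA, 6.75% held TGANTCA and 3.25% held TCATGTG. No window of the 6 genes held the AP-1 letters. The matches describe the letters of these windows and say nothing about binding.

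Osteoclast-like cells were compared first with macrophage-like cells, which share their lineage. In library MGJ, 7 of the 10 genes were at least 4-fold higher in the 126 osteoclast-like cells than in the 1542 macrophage-like cells, where 4.51% of the 9203 genes with at least 50 UMIs in the 2 classes together were. The 7 were Ctsk, Acp5, Atp6v0d2, Ocstamp, Dcstamp, Oscar and Nfatc1. Clcn7 and Tcirg1 were below 4-fold, and Calcr had too few UMIs to be counted. The median ratio of the 9 counted genes was 12.2, and that of all 9203 genes was 1.09. Oscar entered the count only through its 85 UMIs in osteoclast-like cells, beside 2 in macrophage-like cells, so its place among the 7 was set by the class where it is high. Library MGJ2 held 36 macrophage-like cells, under the 50 set for a comparison.

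Against monocyte-like cells, 7 of the 10 were at least 4-fold higher in each library, beside a background of 9.5% of 7533 genes in MGJ and 9.5% of 9018 genes in MGJ2. The 7 differed by 1 gene in each direction, since Oscar was counted in MGJ alone, where all its 85 UMIs were in osteoclast-like cells, and Tcirg1 passed 4-fold in MGJ2 alone. Atp6v0d2, Ocstamp and Dcstamp in MGJ, with 8, 49 and 35 monocyte-like UMIs, also entered the count only through their osteoclast-like UMIs. So did Atp6v0d2 and Dcstamp in MGJ2, with 34 and 22 monocyte-like UMIs. Their places among the 7 were set by the class where they are high. Against stromal-like cells, which pool chondrocyte-, osteoblast-, fibroblast-, tenocyte- and marrow-stroma-like cells, 8 of 10 passed in MGJ beside 7.5%, and 7 of 10 in MGJ2 beside 7.82%. Here the counted gene below 4-fold was Nfatc1 in both libraries. Dcstamp and Oscar in MGJ, with 14 and 9 stromal-like UMIs, again entered the count only through their osteoclast-like UMIs. So did Acp5, Atp6v0d2, Ocstamp, Dcstamp and Clcn7 in MGJ2, with 20, 0, 16, 1 and 40 stromal-like UMIs. Against all other cells together, 8 of 10 passed in MGJ beside 3.47%, and 7 of 10 in MGJ2 beside 3.63%, with Nfatc1 below 4-fold in MGJ and Clcn7 in MGJ2. Oscar in MGJ, with 85 of its 115 UMIs in osteoclast-like cells, entered this count in the same way. The clusters were built from other genes of the same cells, so these ratios describe the classes and carry no test.

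**Figure D1:**
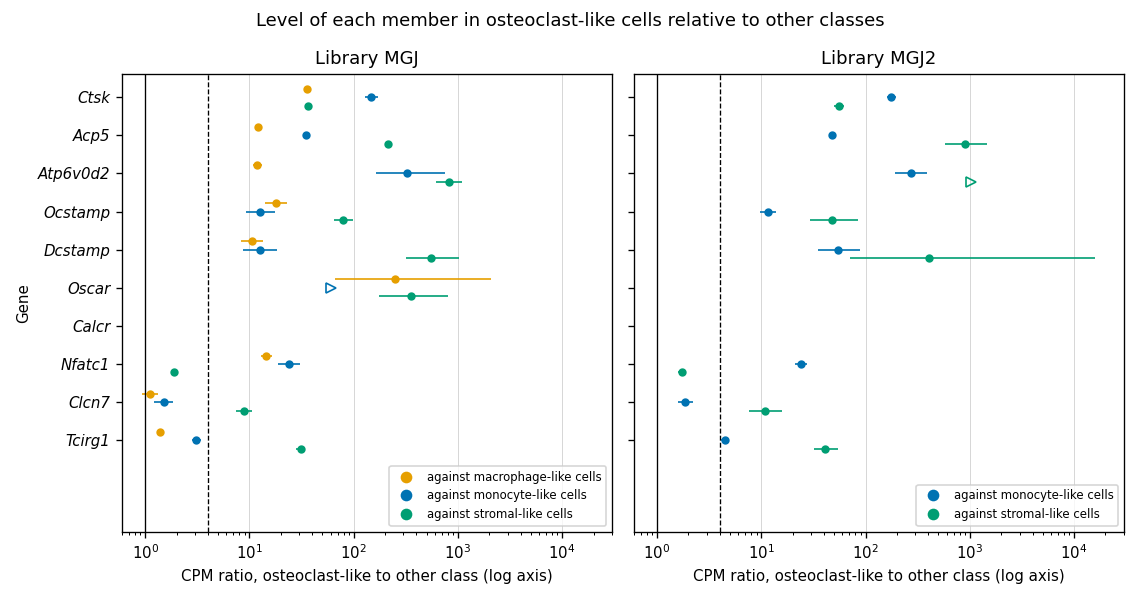
Ratio of the level of each gene in osteoclast-like cells to that in macrophage-like, monocyte-like and stromal-like cells (log axis), with exact 95% intervals for counting error, for library MGJ (left) and library MGJ2 (right). Open triangles are lower bounds where the other class had 0 UMIs, the dashed line marks 4-fold, and the 2 acid-secretion genes and Nfatc1 hold the ratios below it.

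The resorption enzymes had the highest levels of the set in osteoclast-like cells. Ctsk encodes cathepsin K, the cysteine protease that cleaves bone collagen, and lies at chr3:95499256-95509362 on the plus strand. Its level in osteoclast-like cells was 5944 CPM (5845 to 6044) in MGJ and 4416 CPM (4326 to 4506) in MGJ2. In MGJ it was 167 CPM in macrophage-like, 40.1 CPM in monocyte-like and 161 CPM in stromal-like cells, and in MGJ2 it was 113 CPM, 25 CPM and 79.5 CPM in the same classes. The osteoclast-like level stood far above the other 3 in both libraries. The ratio to macrophage-like cells in MGJ was 35.5 (34.0 to 37.1), rank 11 of 9203 genes, and ran from 22.5 to 45.7 under other processing choices. The ratio to monocyte-like cells was 148 (129 to 171) in MGJ and 177 (159 to 196) in MGJ2, and ran from 83.1 to 667 and from 118 to 890 under those choices.

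Ctsk transcripts also lay in stromal classes. After osteoclast-like cells, the next class in MGJ was tenocyte-like with 457 CPM, followed by osteoblast-like with 344 CPM and fibroblast-like with 335 CPM, the last 2 not told apart. Stromal-like cells therefore held 43.6% of all Ctsk UMIs of library MGJ, about as many as the 43.1% in osteoclast-like cells. Of the UMIs of all genes in the kept cells of MGJ, stromal-like cells held 66.0% and osteoclast-like cells 1.77%. In MGJ2, where stromal-like cells were 2.53% of the cells, osteoclast-like cells held 90.3% of the Ctsk UMIs. Both shares follow the make-up of the library as well as the level per cell.

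Acp5 encodes tartrate-resistant acid phosphatase, the enzyme stained in tissue sections to show osteoclasts, and lies at chr9:22126727-22135711 on the minus strand. Its osteoclast-like level was 4198 CPM (4115 to 4282) in MGJ and 3583 CPM (3503 to 3665) in MGJ2. Macrophage-like cells followed with 344 CPM and 268 CPM, monocyte-like cells with 119 CPM and 75.6 CPM, and stromal-like cells were lowest of the 4 with 19.5 CPM and 3.99 CPM. Unlike Ctsk, Acp5 thus fell from the myeloid to the stromal classes in both libraries. The ratio to macrophage-like cells in MGJ was 12.2 (11.8 to 12.6), and the ratios to stromal-like cells were 216 (205 to 227) and 899 (582 to 1473), the latter on 20 stromal-like UMIs. With each cell named by its highest marker score the ratio in MGJ2 was 30.3, the lowest of the alternatives. Osteoblast-like cells of MGJ came next after macrophage-like cells with 262 CPM.

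Detection at equal depth set the class apart as well. When each cell was thinned to 2000 UMIs, 105 osteoclast-like cells of MGJ and 61 of MGJ2 were deep enough. A Ctsk UMI was then found in 68.6% (58.8 to 77.3%) and 78.7% (66.3 to 88.1%) of them, and an Acp5 UMI in 79.0% (70.0 to 86.4%) and 91.8% (81.9 to 97.3%). In neutrophil-like cells, whose median depth was 2525 UMIs in MGJ and 2560 in MGJ2 and which served as the reference for free RNA, Ctsk was found in 1.09% and 0.639% and Acp5 in 2.17% and 1.07%. The Ctsk share of monocyte-like cells, 3.77% (2.48 to 5.48%) in MGJ and 1.37% (0.853 to 2.09%) in MGJ2, lay close to that reference in MGJ2, where the intervals overlapped. Shares were higher in the other 2 classes. With cells of MGJ thinned to 1000 UMIs, Ctsk was found in 9.48% of macrophage-like and 14.6% of stromal-like cells, against 62.8% of osteoclast-like cells. Acp5 was found in 21.5% of those macrophage-like cells, against 71.7%.

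The genes of cell fusion were next. Atp6v0d2 encodes the d2 subunit of the V-ATPase, the proton pump, and is needed for precursors to fuse. It lies at chr4:19876841-19922605 on the minus strand. Its osteoclast-like level was 525 CPM (496 to 555) in MGJ and 618 CPM (584 to 652) in MGJ2. Macrophage-like cells had 44.0 CPM and 90.9 CPM, while monocyte-like cells had 1.61 CPM and 2.28 CPM. Neutrophil-like cells, with 2.87 CPM and 1.26 CPM, did not differ from the monocyte-like cells beyond their intervals. The ratio to monocyte-like cells was 325 (165 to 756) in MGJ on 8 monocyte-like UMIs and 270 (192 to 392) in MGJ2. It depended on how cells were classed, from 84.6 to 749 in MGJ and from 131 to 6155 in MGJ2 over the alternatives.

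The stromal-like cells of MGJ2 had no Atp6v0d2 UMI at all, so the osteoclast-like level was at least 1033-fold higher than the 3-count floor of that class. With each cell named by its highest marker score the ratio there was 20.5. Over all other cells, Atp6v0d2 was 80.5-fold (73.7 to 88.0) higher in MGJ and 326-fold (268 to 402) higher in MGJ2, rank 4 of 14737 and rank 1 of 13067 genes. Over the alternatives these ran from 50.8 to 109 and from 41.7 to 400.4, the lowest in MGJ2 with the 10 genes allowed in the clustering. Its UMIs were also the most concentrated of the 6 genes with more than 2000 UMIs in MGJ, with 59.2% in osteoclast-like cells there and 92.5% in MGJ2. Over the alternatives these shares ran from 49.4 to 63.3% and from 50.7 to 92.2%.

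Ocstamp and Dcstamp encode multi-pass membrane proteins that precursors need to fuse with each other. Ocstamp, at chr2:165393760-165400405 on the minus strand, had an osteoclast-like level of 125 CPM (111 to 140) in MGJ and 153 CPM (137 to 171) in MGJ2. Dcstamp, at chr15:39745930-39760938 on the plus strand, had 88.4 CPM (76.7 to 101.3) and 80.4 CPM (68.7 to 93.5). For both genes the next class was dendritic-like in both libraries. Ocstamp had 23.0 CPM and 31.8 CPM there, 5.46-fold (3.14 to 10.4) and 4.82-fold (3.87 to 6.06) below the osteoclast-like level. Dcstamp had 31.8 CPM and 7.94 CPM, 2.78-fold (1.72 to 4.79) and 10.1-fold (6.72 to 15.8) below it.

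Monocyte-like cells carried both fusion genes at low levels. Ocstamp was at 9.88 CPM (7.31 to 13.1) in MGJ and 13.3 CPM (11.5 to 15.3) in MGJ2, and neutrophil-like cells had 1 and 3 UMIs. Because monocyte-like cells were 20.6% of library MGJ2, they held 29.2% of its Ocstamp UMIs, and dendritic-like cells held 15.9%. Osteoclast-like cells held 47.5% there and 48.3% in MGJ. Dcstamp was at 7.06 CPM in the monocyte-like cells of MGJ and at 1.48 CPM in those of MGJ2, so the ratio of osteoclast-like to monocyte-like cells was 12.5 (8.72 to 18.5) in MGJ and 54.4 (34.8 to 89.1) in MGJ2, with ranges of 6.46 to 58.9 and 37.4 to 98.6 over the alternatives.

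Once thinned to 2000 UMIs, few osteoclast-like cells held a UMI of both fusion genes. At 2000 UMIs per cell, Ocstamp was detected in 20.0% (12.8 to 28.9%) of osteoclast-like cells in MGJ and 31.1% (19.9 to 44.3%) in MGJ2, and Dcstamp in 8.57% (3.99 to 15.6%) and 13.1% (5.84 to 24.2%). Both were found in 5 of 105 cells in MGJ and in 3 of 61 cells in MGJ2. Dcstamp was found without Ocstamp in 4 and 5 cells, and Ocstamp without Dcstamp in 16 cells of each library. At these levels a cell holds few UMIs of either gene, so a missing UMI does not show that the gene was off. Ctsk and Acp5, whose levels were higher, were found together in 68 of 105 and 48 of 61 cells.

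**Figure D2:**
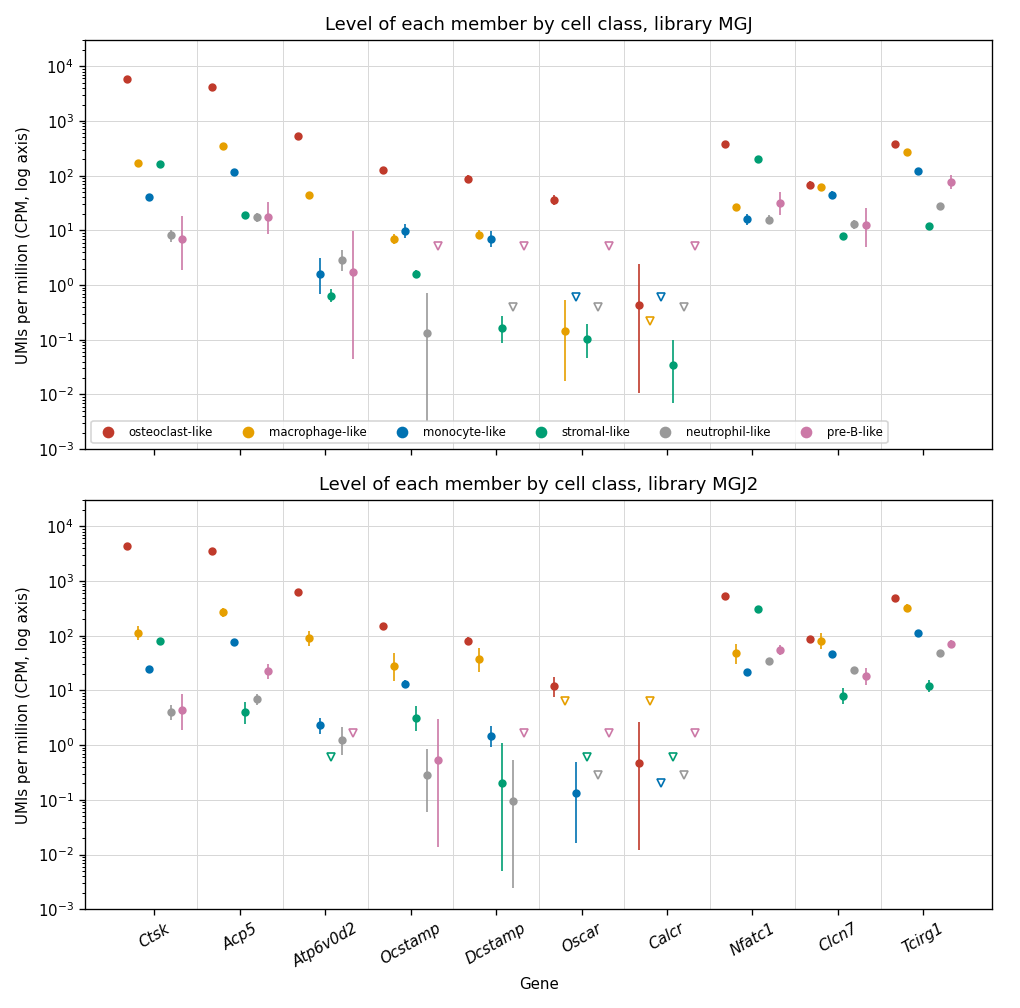
Level of each gene (CPM, log axis) in 6 cell classes of library MGJ (top) and library MGJ2 (bottom), with exact 95% Poisson bars and open triangles at the 3-count floor where a class had 0 UMIs. For the 9 genes other than Calcr the red osteoclast-like points lie above the points of the other 5 classes, closely so for Clcn7 and Tcirg1 against macrophage-like cells, and Calcr rests on 1 UMI per library, below some of the floors.

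The receptors were the sparsest genes of the set. Oscar encodes a collagen-binding receptor that signals through the Fc receptor gamma chain and costimulates osteoclast formation, and lies at chr7:3609813-3616157 on the minus strand. Its osteoclast-like level was 36.5 CPM (29.1 to 45.1) in MGJ and 11.9 CPM (7.70 to 17.6) in MGJ2, from 85 and 25 UMIs. The 1542 macrophage-like cells of MGJ had 2 Oscar UMIs, which gave a ratio of 249 (66.9 to 2091), from 132 to 596 over the alternatives. The monocyte-like cells of MGJ had 0 UMIs, so that ratio was at least 60.3. In MGJ2 the monocyte-like cells had 2 UMIs, and the 27 UMIs of the 2 classes together were under the 50 set for the count.

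Few cells carried Oscar. It was found in 17 of the 126 osteoclast-like cells of MGJ, with up to 22 UMIs in 1 cell, and in 9 of the 69 of MGJ2, with up to 8. The 10 cells with the most UMIs held 91.8% of the osteoclast-like Oscar UMIs in MGJ and 100% in MGJ2. Even so, osteoclast-like cells held 73.9% of all Oscar UMIs of library MGJ and 86.2% of those of MGJ2.

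Calcr encodes the calcitonin receptor, through which the hormone calcitonin stops resorption, and lies at chr6:3685680-3764714 on the minus strand. It had 4 UMIs among the cells of library MGJ and 1 in library MGJ2. Of these, 1 was in an osteoclast-like cell in each library and the other 3 of MGJ were in fibroblast-like cells. Its osteoclast-like level of 0.429 CPM (0.0109 to 2.39) and 0.476 CPM (0.0120 to 2.65) could not be told apart from any other class at this depth.

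Nfatc1, the transcription factor that RANKL signalling induces and that drives the osteoclast programme, was also high in classes outside the myeloid lineage. Its level in osteoclast-like cells was 384 CPM (359 to 410) in MGJ and 528 CPM (498 to 560) in MGJ2. It was 26.4 CPM in macrophage-like and 16.1 CPM in monocyte-like cells of MGJ, and 47.6 CPM and 22 CPM in those of MGJ2, while stromal-like cells had 203 CPM and 305 CPM. Within the myeloid classes Nfatc1 therefore followed the resorption genes, with a ratio to macrophage-like cells of 14.5 (12.8 to 16.5) and to monocyte-like cells of 23.8 (18.9 to 30.3) and 24.0 (21.2 to 27.2). Against stromal-like cells the ratio was 1.89 (1.77 to 2.02) in MGJ and 1.73 (1.603 to 1.87) in MGJ2.

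Most Nfatc1 transcripts lay outside the osteoclast-like class. Stromal-like cells held 88.8% of its UMIs in MGJ, beside 66.0% of the UMIs of all genes, and osteoclast-like cells held 4.51%, beside 1.77%. In MGJ2 NK-like cells held 26.2%, beside 5.07% of the UMIs of all genes, and osteoclast-like cells 14.9%, beside 3.62%. The NK-like level of 664 CPM in MGJ2 was 1.26-fold (1.17 to 1.35) above the osteoclast-like level, the only case among the 9 genes other than Calcr in which another class of at least 50 cells ranked first. In MGJ the order was turned, with osteoclast-like cells 1.40-fold (1.07 to 1.86) above the 275 CPM of NK-like cells.

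The acid-secretion genes separated osteoclast-like cells from stromal-like cells but hardly from macrophage-like cells. Clcn7 encodes the chloride-proton exchanger of lysosomes and of the ruffled border, and lies at chr17:25133391-25162104 on the plus strand. Its osteoclast-like level was 68.2 CPM (58.0 to 79.7) in MGJ and 86.6 CPM (74.5 to 100.1) in MGJ2. Macrophage-like cells had 60.9 CPM and 80.1 CPM, monocyte-like cells 45.2 CPM and 46.4 CPM, and stromal-like cells 7.75 CPM and 7.97 CPM. The ratio to macrophage-like cells in MGJ was 1.12 with an interval of 0.940 to 1.33, so the 2 classes could not be told apart, and 3 of 11 alternatives put it below 1, the lowest at 0.88. To monocyte-like cells it was 1.51 (1.22 to 1.86) in MGJ and 1.87 (1.58 to 2.20) in MGJ2, the latter from 1.17 to 2.80 over the alternatives.

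Tcirg1 encodes the a3 subunit of the V-ATPase, whose loss causes osteopetrosis, and lies at chr19:3896050-3907133 on the minus strand. Its osteoclast-like level was 374 CPM (350 to 400) in MGJ and 499 CPM (469 to 530) in MGJ2. Macrophage-like cells had 270 CPM and 325 CPM, monocyte-like cells 121 CPM and 112 CPM, and stromal-like cells 12.1 CPM and 12.2 CPM. The steps were thus of one order in both libraries. The ratio to macrophage-like cells in MGJ was 1.39 (1.29 to 1.495), above 1 but small beside the 11.9 of Atp6v0d2, the other V-ATPase subunit of the set. To monocyte-like cells it was 3.10 (2.79 to 3.44) in MGJ and 4.45 (4.12 to 4.81) in MGJ2, and to stromal-like cells 31.0 (28.3 to 33.9) and 41.1 (31.7 to 54.1), the latter 9.96 with each cell named by its highest marker score.

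Where the transcripts of each gene lay followed from these levels and from the make-up of the libraries. Osteoclast-like cells, with 1.77% of the UMIs of the kept cells in MGJ and 3.62% in MGJ2, held 43.1 to 73.9% of the UMIs of Ctsk, Acp5, Atp6v0d2, Ocstamp, Dcstamp and Oscar in MGJ and 47.5 to 92.5% in MGJ2. They held 4.51 to 11.8% of the UMIs of Nfatc1, Clcn7 and Tcirg1 in MGJ and 10.8 to 22.4% in MGJ2. The 2 ranges did not overlap in either library. Over the alternatives the Atp6v0d2 share in MGJ2, the upper end of its range, ran from 50.7 to 92.2%.

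**Figure D3:**
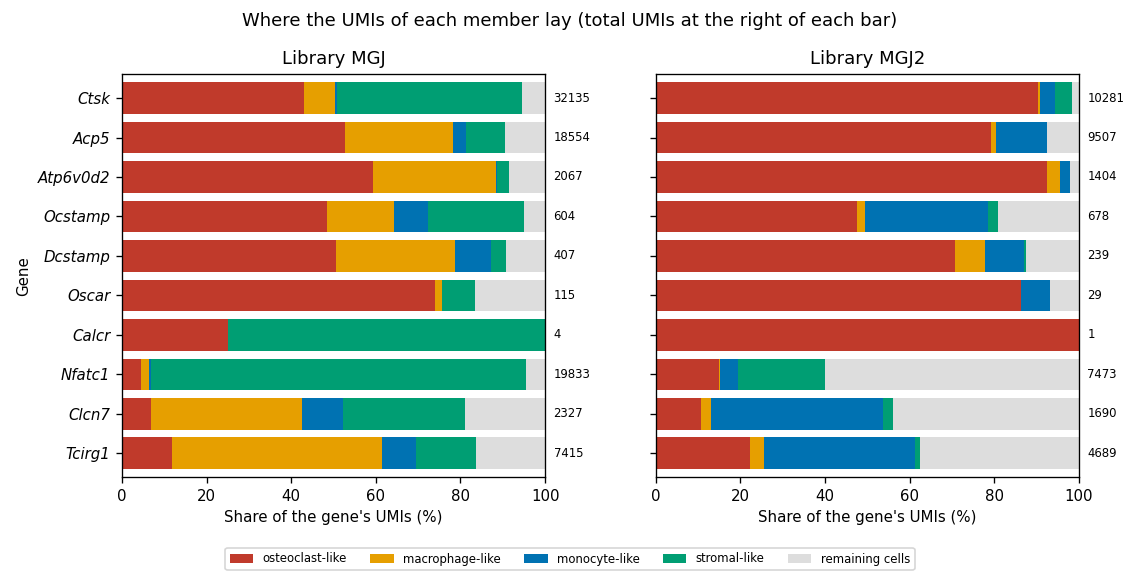
Share of the UMIs of each gene that lay in osteoclast-like, macrophage-like, monocyte-like, stromal-like and remaining cells (%), for library MGJ (left) and library MGJ2 (right), with the total UMIs of the gene at the right of each bar. Red covers the largest part of the bars of Atp6v0d2 and Oscar in both libraries and a small part of those of Nfatc1, Clcn7 and Tcirg1.

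Single osteoclast-like cells spread widely around the class levels. The median cell had 1731 CPM of Ctsk in MGJ and 1554 CPM in MGJ2, below the class levels, and the highest cells reached 27616 CPM and 15459 CPM. No Ctsk UMI was seen in 38 of 126 cells and in 14 of 69 cells. The 10 cells with the most Ctsk UMIs held 43.5% and 49.7% of those of the class. For Acp5 the median cell had 2052 CPM and 1998 CPM, with 20 and 13 cells at 0. Of the 126 osteoclast-like cells of MGJ, 87 had a UMI of both enzymes and 107 a UMI of at least 1, and in MGJ2 these were 54 and 57 of 69.

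Cells without Acp5 were mostly shallow ones. When only cells with at least 5000 UMIs were counted, Acp5 was at 0 in 4 of 99 cells in MGJ and 5 of 58 in MGJ2, and Ctsk in 19 and 6. Nfatc1 and Tcirg1 were more even than the enzymes. In these deeper cells the Nfatc1 values ran between their quartiles from 133 to 515 CPM in MGJ and from 269 to 674 CPM in MGJ2, and that of Tcirg1 from 229 to 448 CPM and from 348 to 688 CPM. The quartiles of Ctsk were far wider apart, running from 107 to 7565 CPM and from 428 to 7545 CPM.

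**Figure D4:**
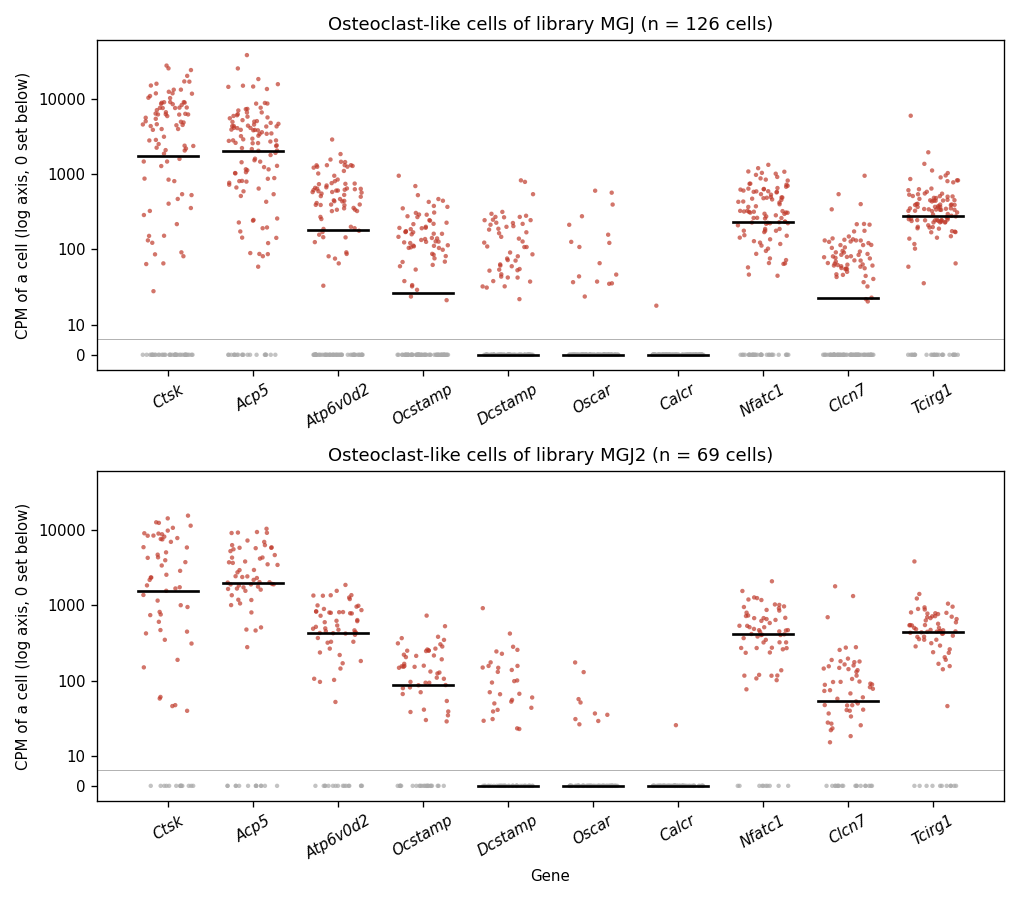
CPM of each gene in each single osteoclast-like cell (log axis, with cells at 0 on a separate line below) for the 126 cells of library MGJ (top) and the 69 of library MGJ2 (bottom), black lines marking medians. Ctsk runs from 0 to 27616 CPM in MGJ and from 0 to 15459 CPM in MGJ2, while the medians of Dcstamp, Oscar and Calcr are at 0.

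Counted per cell, osteoclast-like cells carried a median of 6 of the 10 genes in MGJ (quartiles 3.25 to 8) and 7 in MGJ2 (6 to 8). At least 5 of the 10 were found in 77 of 126 cells (61.1%) and in 54 of 69 cells (78.3%), and all 10 in 1 cell of each library. No gene of the set was found in 16 and 4 cells. Macrophage-like cells of MGJ carried a median of 2 genes, and 8.30% of them carried at least 5. At an equal depth of 2000 UMIs the osteoclast-like medians were 3 and 4 genes, and 23.8% and 39.3% of cells had at least 5.

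The osteoclast-like cells were then clustered among themselves, again without the 10 genes, into 4 sub-clusters that occurred in both libraries. Sub-cluster 1 held 66 cells, sub-cluster 2 held 49, sub-cluster 3 held 47 and sub-cluster 4 held 33. Their levels are described without a test, and the leading genes named here, other than Mmp9, Itgb3, Oscar, Vcan and Top2a, were chosen after their values were seen. Sub-cluster 1 was led by Mt3, Oscar, Rab38 and Mmp9 and had the integrin subunit gene Itgb3 at 80.4 CPM in MGJ and 63.9 CPM in MGJ2. Sub-cluster 2 was the shallowest, with a median of 12558 UMIs, and was led by Saa3, F10 and Fcgr1. The monocyte marker Vcan was also among its leading genes. In its 40 cells of MGJ, 2 markers behind the osteoclast-like name lay below all other cells. Mmp9 was at 33.1 CPM (18.9 to 53.8) against 42.8 CPM, and Itgb3 at 0 against 13.1 CPM. Ckb, Slc9b2, Tnfrsf11a and Jdp2 lay above all other cells there. Rufy4 was at 2.07 CPM (0.0524 to 11.5) on 1 UMI, against 0.495 CPM. Car2 was at 16.6 CPM (7.15 to 32.6) on 8 UMIs, against 9.33 CPM. These 2 markers were not told apart from all other cells. In MGJ2 Mmp9 was at 159 CPM against 87.0 CPM, and Car2 at 17.6 CPM against 57.8 CPM. Itgb3 was also lower than in all other cells in sub-clusters 3 and 4. It was at 12.2 and 6.89 CPM in MGJ, and at 6.72 and 3.19 CPM against 14.0 CPM in MGJ2. Car2 was at 29.1 and 35.1 CPM in those of MGJ2. Of these values, only Car2 in sub-cluster 3 had an interval wholly below all other cells. Mmp9, Ckb, Slc9b2, Tnfrsf11a, Rufy4 and Jdp2 lay above all other cells in both sub-clusters of both libraries. Sub-cluster 3 was led by Myc, and sub-cluster 4 by cell-division genes such as Aurkb, Cenpf and Top2a.

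The resorption genes were highest in sub-cluster 1. Ctsk was at 11204 CPM (10972 to 11439) there in MGJ, against 420 CPM, 4032 CPM and 4712 CPM in sub-clusters 2, 3 and 4. In MGJ2 it was at 8786 CPM (8580 to 8996), against 1111 CPM, 1832 CPM and 2063 CPM. Mmp9 fell off more steeply, from 4617 CPM to 33.1 CPM, 447 CPM and 379 CPM in MGJ, and from 3400 CPM to 159 CPM, 148 CPM and 265 CPM in MGJ2. Acp5, Atp6v0d2, Ocstamp, Dcstamp and Clcn7 were also highest in sub-cluster 1 in both libraries, as was Tcirg1 with 519 CPM and 624 CPM, with intervals that overlapped those of another sub-cluster for Clcn7 in MGJ and for Clcn7 and Tcirg1 in MGJ2.

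Oscar was the gene most concentrated in sub-cluster 1. It was at 100.5 CPM (79.7 to 125) there in MGJ and at 15.3 CPM (4.97 to 35.7) in sub-cluster 3, with 0 UMIs in sub-clusters 2 and 4. In MGJ2 all 25 of its UMIs were in sub-cluster 1, at 32.0 CPM (20.7 to 47.2). Sub-cluster 2 of MGJ2 had 9 cells, and its interval at 0 UMIs reached 32.5 CPM, so a difference from sub-cluster 1 was not detectable there.

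Nfatc1 did not follow that order. It was at 393 CPM (351 to 439), 149 CPM (117 to 188), 474 CPM (402 to 555) and 489 CPM (440 to 543) in sub-clusters 1 to 4 of MGJ, and at 601 CPM (548 to 658), 300 CPM (208 to 419), 467 CPM (423 to 514) and 604 CPM (521 to 696) in those of MGJ2. Sub-clusters 1 and 4 thus carried like levels of Nfatc1 in MGJ2 while Ctsk differed between them. Sub-cluster 4, with Top2a at 369 CPM and 348 CPM and Mki67, a marker of dividing cells, at 167 CPM and 351 CPM, still carried Ctsk, Acp5 and Atp6v0d2, the last at 420 CPM (374 to 470) and 540 CPM (462 to 628).

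Sub-cluster 2 had the lowest value of the 4 for Ctsk, Acp5, Atp6v0d2 and Nfatc1 in both libraries. For Ocstamp, Dcstamp, Clcn7 and Tcirg1 it was lowest in MGJ but not in MGJ2, where its 9 cells gave 115 CPM, 44.1 CPM, 61.7 CPM and 511 CPM, second highest for Ocstamp, Dcstamp and Tcirg1. In MGJ its macrophage marker C1qb, a complement gene, was highest of the 4 at 104 CPM (76.9 to 137) against 8.80 CPM, 42.8 CPM and 84.1 CPM, the last with an overlapping interval (64.3 to 108). In MGJ2 C1qb was at 70.5 CPM (30.5 to 139) in sub-cluster 2 against 2.56 CPM, 6.72 CPM and 28.7 CPM. The part of C1qb-bearing cells or transcripts in the low levels of the 10 genes was not tested.

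**Figure D5:**
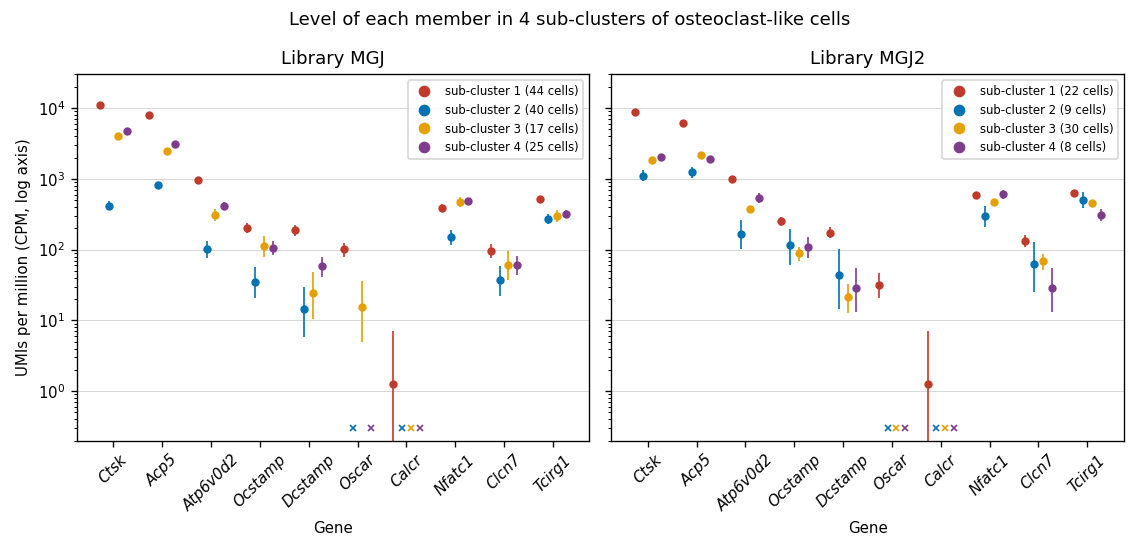
Level of each gene (CPM, log axis) in 4 sub-clusters of the osteoclast-like cells, with exact 95% Poisson bars, for library MGJ (left) and library MGJ2 (right); crosses at the bottom mark 0 UMIs. Sub-cluster 1 is highest for Ctsk, Acp5, Atp6v0d2, Ocstamp, Dcstamp and Oscar, and the 4 points of Nfatc1 and Tcirg1 lie closer together.

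A list of 37 other genes of the same pathway was set beside the 10. Against macrophage-like cells of MGJ, 1 of the 37 was at least 4-fold higher, beside 4.51% of all genes, and 4 were at least 4-fold lower, beside 672 of 9203 genes, with a median ratio of 0.98 against 1.09 for all genes. The 1 was Slc4a2, the anion exchanger that supplies chloride for acid secretion, at 139 CPM in osteoclast-like and 29.3 CPM in macrophage-like cells, a ratio of 4.76 (4.10 to 5.53). Against monocyte-like cells 2 of 36 passed in MGJ and 7 of 37 in MGJ2, beside 9.5% of all genes in each, and against stromal-like cells 22 of 37 passed in each library, beside 7.5% and 7.82%. The counts against the myeloid classes of MGJ were not above the background.

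The subunits of the proton pump make up the longest list. None of the 15 listed V-ATPase genes was at least 4-fold higher than in macrophage-like cells of MGJ, beside 4.51% of all genes. Their median ratio was 1.48. Against monocyte-like cells 0 of 14 passed in MGJ and 4 of 15 in MGJ2, beside 9.5% of all genes in each. Against stromal-like cells 10 of 15 passed in each library, beside 7.5% and 7.82%. Atp6v1b2 was at 512 CPM against 251 CPM, a ratio of 2.04 (1.91 to 2.18), and Atp6v0c at 3983 CPM against 2143 CPM, a ratio of 1.86 (1.82 to 1.90). The isoform pairs went opposite ways. Atp6v0d2 was 11.9-fold higher while Atp6v0d1, the broadly expressed d1 form, had a ratio of 0.67 (0.60 to 0.75), and Tcirg1 was 1.39-fold higher while Atp6v0a1, the gene of the a1 form, had a ratio of 0.22 (0.10 to 0.45) on 8 osteoclast-like UMIs. Against monocyte-like cells the Atp6v0a1 intervals took in 1, with ratios of 0.50 (0.20 to 1.10) in MGJ and 0.77 (0.36 to 1.48) in MGJ2.

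None of the 4 other proteases was at least 4-fold higher than in macrophage-like cells of MGJ. The shares of all genes past 4-fold were 4.51% there and 9.5% against monocyte-like cells of each library. The lysosomal cathepsin genes Ctsb, Ctsd and Ctsl were lower in osteoclast-like than in macrophage-like cells of MGJ, with ratios of 0.26 (0.25 to 0.27), 0.19 (0.18 to 0.20) and 0.25 (0.23 to 0.26). Of the 6 listed fusion and adhesion genes none was at least 4-fold higher against either myeloid class, and Adam8 had a ratio of 0.25 (0.22 to 0.28) to macrophage-like cells. Mmp14, a membrane-bound collagenase, was at 256 CPM against 277 CPM in macrophage-like cells of MGJ, and at 244 CPM against 33.7 CPM in monocyte-like cells of MGJ2, a ratio of 7.22 (6.37 to 8.18) and the 1 protease of 4 to pass there.

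Among signalling partners, Src, the kinase needed for the ruffled border, was the 1 of 8 that passed 4-fold against monocyte-like cells, beside 9.5% of all genes in each library. Its ratio was 6.18 (4.48 to 8.64) in MGJ and 29.8 (21.2 to 42.8) in MGJ2. Fcer1g, the Fc receptor gamma chain through which Oscar signals, was lower in osteoclast-like than in monocyte-like cells, at 773 CPM against 2718 CPM in MGJ and 573 CPM against 1745 CPM in MGJ2. Csf1r, the M-CSF receptor, was at 281 CPM against 232 CPM in MGJ and 298 CPM against 414 CPM in MGJ2. The 8 signalling genes had a median ratio to monocyte-like cells of 1.32 in MGJ and 0.70 in MGJ2, against 1.24 and 1.08 for all genes.

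The values above rest on 126 and 69 cells from 1 library each, so the spread between animals is unknown. The osteoclast-like share of cells moved with the clustering, from 0.488 to 1.35% in MGJ and from 0.409 to 1.96% in MGJ2. These ranges leave out clustering without the second step, which named no osteoclast-like cells in either library. Doublet calls were removed, and 84 of the 140 calls in MGJ and 58 of the 222 in MGJ2 carried a UMI of Ctsk or Acp5.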

How the data were processed

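Callus of wild-type mice was digested to single cells and captured with the 10x Chromium 3′ version 3 chemistry, with a stated target of 5000 cells per run. The deposited values are UMI counts per gene and barcode in filtered matrices of 14295 and 8009 barcodes, made by the authors on GRCm38. The matrix headers name Cell Ranger 4.0.0, and the submitters' processing notes add Seurat.

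Barcodes with at least 200 genes and at most 20% mitochondrial UMIs were kept (13460 and 7806), and Scrublet calls removed (140 and 222 barcodes). Both libraries were clustered together in 2 steps with scanpy 1.11.5 (2000 variable genes without the 10 genes, scaled, 30 components, 15 neighbours, resolution 1 and then 0.5), giving 161 sub-clusters, named from 25 marker lists. Of 6 clustering schemes tried, this one was chosen after the size, depth and leading genes of the osteoclast-like clusters, some of the 10 genes among them, had been seen. The 10 genes and the lists were chosen with earlier results of these data known. UMIs were summed per class and library. Ratios are of CPM, with exact conditional binomial intervals, and genes needed 50 UMIs in the 2 classes together. With 1 library each and no day in the labels, no test was made. Named genes were the 10, the pathway and marker lists, and the leading genes of the osteoclast-like clusters. Intervals cover counting error only. Scripts were tested on simulated data. Promoter windows are from RefSeq (GRCm38.p6), and gene positions from a GENCODE annotation of GRCm38. Proteins were not analysed here.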

Additional observations from a re-analysis of the deposited data

Results flagged for a closer look

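Transcripts of the 10 genes were also found in the barcodes that the filters and the doublet calls had removed. No main comparison used these barcodes, and the doublet calls were kept only in a processing alternative. Their summed level was 577 CPM (553 to 602) over 975 barcodes of library MGJ, from 2134 UMIs, and 906 CPM (873 to 941) over 425 barcodes of MGJ2, from 2740 UMIs. Both lie above the 3-count floor of those barcodes, 0.811 and 0.992 CPM. In the kept cells the summed level was 634 CPM and 619 CPM, and in the doublet calls alone 601 CPM and 266 CPM. The doublet calls held 1356 of the 2134 UMIs in MGJ and 695 of the 2740 in MGJ2. The rest of the 2740 lay in barcodes that failed the gene or mitochondrial limit. Their level was therefore above 906 CPM. Those barcodes were given no class, so the osteoclast-like cells and share of MGJ2 leave them out.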

How the results depend on the processing

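The ratio of Clcn7 to macrophage-like cells of MGJ, 1.12 and not told apart from 1, ran from 0.878 to 1.22 and fell below 1 under 3 of 11 alternatives; no other counted ratio of the 10 genes did. The count of the 10 genes at least 4-fold higher in osteoclast-like cells ranged from 6 to 7 against macrophage-like cells of MGJ, from 6 to 8 against monocyte-like cells in each library, from 7 to 8 against stromal-like cells in each, and against all other cells from 6 to 9 in MGJ and 5 to 8 in MGJ2. The osteoclast-like share of cells, 0.946% in MGJ and 0.910% in MGJ2, moved with the clustering. In MGJ it was 0.586% at resolution 0.5, 0.556% at resolution 2, 0.488% with the 10 genes allowed in the clustering, 0.766% with each library clustered by itself, 1.35% with each cell named by its highest marker score, and 0.743% without cells under 5000 UMIs. In MGJ2 it was 0.659% at resolution 0.5, 0.514% with the 10 genes allowed, 0.409% without scaling of genes and 1.96% by the highest score. Leaving out the second clustering step gave 0 osteoclast-like cells in both libraries. The ranges given leave this setting out, and no level or ratio exists for it. Large ratios moved further, such as Acp5 to stromal-like cells of MGJ2 from 30.3 to 1486 and Atp6v0d2 to monocyte-like cells of MGJ2 from 131 to 6155. The cause of these shifts was not tested. Cells found by the highest score shared 75 of 126 and 46 of 69 cells with the class reported. The share of Ctsk UMIs in osteoclast-like cells of MGJ2 ran from 40.5 to 90.6%. Ratios near 4-fold crossed that line, Tcirg1 against monocyte-like cells of MGJ2 between 3.73 and 5.59, Clcn7 against all other cells of MGJ between 2.44 and 4.56, and Nfatc1 against all other cells of MGJ2 between 3.42 and 5.20. The unscaled and single-step clusterings and the 5000-UMI limit were chosen after seeing the data. No paired analysis was possible because the labels give the 2 libraries neither groups nor replicate numbers.

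Depth limited Calcr, Oscar in MGJ2 and joint detection of Ocstamp and Dcstamp. How well large multinucleate cells enter droplets was not measured.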
